A study of Mus musculus with 9 samples.

Results

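The choroid plexus is the secretory tissue of the brain ventricles, and its epithelium makes the cerebrospinal fluid. Its cells move ions and water from the blood side to the ventricle, are joined by leaky tight junctions, and secrete carrier proteins into the fluid. The plexus of the lateral ventricle lies against the hippocampus along the choroidal fissure. The genes described here are 10 markers of this epithelium, Ttr, Enpp2, Kl, Folr1, Aqp1, Kcnj13, Slc4a5, Clic6, Cldn2 and Otx2, out of 47643 genes counted. They were chosen by name with their measured counts in these same 9 libraries already known, so their levels and differences are given as a description, with no p-value. Where it is counted how many of them passed a threshold, the count uses the values that chose them and is a description too.

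Hippocampal RNA was sequenced at 6 weeks of age in 3 groups of 3 libraries. MRL/mpj mice are the wild-type controls, and MRL/lpr mice share that background, carry the lpr mutation of the death receptor gene Fas, and develop lupus spontaneously. The group MRL/lpr+MSC was MRL/lpr mice given mesenchymal stem cells. Both other groups were untreated, and the dose, route and time of the cells are not given in the sources used here. C57BL/6 stands as the strain in the label of each library, whereas the series design and the methods give the MRL strains used here. Fas as a whole gene did not separate the groups, since its level of 1.33 to 2.27 CPM (reads scaled to library size) in MRL/lpr libraries spanned all MRL/mpj libraries, and it was 0.985 to 1.81 CPM in MRL/lpr+MSC libraries, so it does not check the labels. A table published with the study raises a doubt about the 2 lpr groups, because its columns headed MRL/lpr are proportional, gene by gene, to the deposited counts labelled MRL/lpr+MSC, over the genes that could be compared. The libraries are called here by their labels, and because both lpr groups are described, exchanging these 2 labels would exchange their values. The mice were perfused before dissection, according to the methods, and only part of the dissected samples went to RNA. Neither source gives the litter, batch or date of the sequenced libraries, so the spread between libraries may be partly technical.

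The libraries held 19475804 to 26912031 counts each, and 3 counts, taken as the limit of detection, corresponded to 0.105 to 0.163 CPM. This limit covers counting error only. CPM are counts relative to the size of the library, which was adjusted with trimmed-mean factors of 0.943 to 1.06, and FPKM, the deposited values per gene length, are used where levels of different genes are compared. No library repeated another of its group within sampling noise.

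The 10 genes are spread over 9 chromosomes, with only Aqp1 and Slc4a5 sharing one, chromosome 6. The chromosome of Ttr was left out of the search for promoters. RefSeq promoter windows of 300 bases (GRCm38.p6, 250 before to 50 after a transcription start) were found for 6 of the 10 genes, in 9 windows. They were searched for TATAAA (the TATA box) and for TAATCC, the core bound by OTX homeodomain proteins, with their reverse complements TTTATA and GGATTA. The windows of Kcnj13, Cldn2 and Slc4a5 and the Otx2 window at chr14:48665060-48665359 each hold a match, in capitals. Whether the matches bear on the levels of these genes was not tested. Within a window no match overlapped another.
Kcnj13, chr1:87394680-87394979, minus strand: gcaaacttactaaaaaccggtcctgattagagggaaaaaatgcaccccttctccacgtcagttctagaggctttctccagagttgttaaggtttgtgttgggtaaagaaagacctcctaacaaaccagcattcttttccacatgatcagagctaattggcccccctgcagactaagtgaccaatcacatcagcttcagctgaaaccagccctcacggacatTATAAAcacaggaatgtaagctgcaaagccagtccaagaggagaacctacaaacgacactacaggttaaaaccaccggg
Cldn2, chrX:139800558-139800857, plus strand: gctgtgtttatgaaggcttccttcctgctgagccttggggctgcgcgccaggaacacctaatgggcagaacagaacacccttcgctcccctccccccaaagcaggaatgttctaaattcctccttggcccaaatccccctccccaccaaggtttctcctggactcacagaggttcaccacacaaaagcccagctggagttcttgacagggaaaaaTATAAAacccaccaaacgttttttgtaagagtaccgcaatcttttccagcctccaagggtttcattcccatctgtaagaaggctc
Slc4a5, chr6:83237125-83237424, plus strand: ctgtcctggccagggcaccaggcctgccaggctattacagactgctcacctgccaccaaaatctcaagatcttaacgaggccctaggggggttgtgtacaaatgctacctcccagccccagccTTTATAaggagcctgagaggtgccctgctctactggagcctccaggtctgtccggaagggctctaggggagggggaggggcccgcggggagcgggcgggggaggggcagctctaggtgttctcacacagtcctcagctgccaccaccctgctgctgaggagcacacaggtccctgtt
Otx2, chr14:48665060-48665359, minus strand: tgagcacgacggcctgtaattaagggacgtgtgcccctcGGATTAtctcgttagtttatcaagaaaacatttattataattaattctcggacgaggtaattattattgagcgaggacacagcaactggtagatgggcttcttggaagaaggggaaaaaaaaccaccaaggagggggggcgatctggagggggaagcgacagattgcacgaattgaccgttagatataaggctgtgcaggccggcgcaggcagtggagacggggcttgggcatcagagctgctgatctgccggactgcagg
TATAAA began at position 222 of the Kcnj13 window and at position 216 of the Cldn2 window, shortly before the transcription start. TTTATA began at position 124 of the Slc4a5 window. GGATTA began at position 40 of this Otx2 window, and another of the 4 Otx2 windows held TATAAA at position 59. In all, 4 of the 9 windows held a TATA match on either strand and 1 held an OTX-type match, and the Kl and Aqp1 windows held neither. Among 32851 RefSeq promoter windows of the same length, 13.6% held the TATA letters and 7.06% the OTX-type letters on either strand. The matches are letters in a window, not shown to be bound.

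The secreted proteins and carriers included the most abundant of the 10 genes. Ttr (ENSMUSG00000061808, chromosome 18) encodes transthyretin, which carries thyroid hormone and, with retinol-binding protein, retinol in the cerebrospinal fluid. Its level was 122, 445 and 623 CPM in MRL/mpj libraries 1 to 3, 929, 8870 and 50.9 CPM in MRL/lpr libraries 1 to 3, and 67.1, 4422 and 446 CPM in MRL/lpr+MSC libraries 1 to 3. MRL/lpr 2 and MRL/lpr+MSC 2 stood far above the rest, MRL/lpr 3 and MRL/lpr+MSC 1 lay below every MRL/mpj library, and the groups overlapped. In MRL/lpr 2, 0.901% of all counts came from this single gene, against 0.00537% in MRL/lpr 3.

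Enpp2 (ENSMUSG00000022425, chr15:54838901-54952892, minus strand) encodes autotaxin, a secreted enzyme that makes lysophosphatidic acid, and oligodendrocytes express it too. It measured 250.3, 418 and 566 CPM in MRL/mpj libraries 1 to 3, 655, 3689 and 162 CPM in the MRL/lpr libraries, and 129.6, 1990 and 393 CPM in the MRL/lpr+MSC libraries. The libraries stood in nearly the same order as for Ttr, but the highest was 28.5 times the lowest, against 174 times for Ttr. The summed level of 8 oligodendrocyte genes was 5023 CPM in MRL/lpr 2, where Enpp2 was highest, and 9805 CPM in MRL/lpr 1, the highest of all libraries. It was lowest, at 4260 CPM, in MRL/lpr+MSC 1, where Enpp2 was lowest too, and its part in the level of Enpp2 was not tested.

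Kl (ENSMUSG00000058488, chr5:150952607-150993817, plus strand) encodes klotho, a membrane protein that is also shed into the fluid. It had the narrowest range, with 30.6, 48.7 and 48.1 CPM in MRL/mpj, 61.7, 394 and 17.2 CPM in MRL/lpr, and 24.9, 214 and 43.6 CPM in MRL/lpr+MSC libraries 1 to 3. Folr1 (ENSMUSG00000001827, chr7:101858331-101870788, minus strand) encodes folate receptor alpha, which carries folate across this epithelium. Its level was 1.15, 5.20 and 6.37 CPM in MRL/mpj, 14.3, 69.6 and 1.56 CPM in MRL/lpr, and 1.71, 42.8 and 7.16 CPM in MRL/lpr+MSC libraries. For both genes the second library of each lpr group was highest and the groups overlapped.

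The transporters and channels that move water and ions showed the same 2 high libraries. Aqp1 (ENSMUSG00000004655, chr6:55336432-55348555, plus strand), the water channel of the ventricular membrane, measured 1.40, 2.23 and 2.56 CPM in MRL/mpj, 7.23, 50.6 and 3.30 CPM in MRL/lpr, and 0.674, 26.9 and 14.5 CPM in MRL/lpr+MSC libraries 1 to 3. All MRL/lpr libraries lay above all MRL/mpj libraries, and MRL/lpr+MSC libraries lay on both sides of them. Kcnj13 (ENSMUSG00000079436, chr1:87386363-87394729, minus strand), the inward rectifier potassium channel Kir7.1, was the least abundant of the 10 by mean FPKM. It had 9, 15 and 13 counts in MRL/mpj, 47, 209 and 7 in MRL/lpr, and 5, 99 and 17 in MRL/lpr+MSC libraries, so its low values carry large counting errors.

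Slc4a5 (ENSMUSG00000068323, chr6:83219828-83304945, plus strand), a sodium bicarbonate cotransporter of the ventricular membrane, had the widest range. Its counts were 15, 88 and 75 in MRL/mpj, 265, 1638 and 4 in MRL/lpr, and 9, 792 and 100 in MRL/lpr+MSC libraries 1 to 3. MRL/lpr 2 stood 417-fold above MRL/lpr 3 in CPM, and the 4 counts of MRL/lpr 3 are close to the limit of detection. Clic6 (ENSMUSG00000022949, chr16:92485736-92541243, plus strand), a member of the chloride intracellular channel family, measured 9.04, 13.8 and 20.4 CPM in MRL/mpj, 38.4, 185 and 25.8 CPM in MRL/lpr, and 4.15, 100.5 and 36.1 CPM in MRL/lpr+MSC libraries. For Clic6 the lowest MRL/lpr library was above the highest MRL/mpj library.

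Cldn2 (ENSMUSG00000047230, chrX:139800828-139811386, plus strand) encodes claudin-2, which makes tight junctions permeable to small cations and water. It measured 0.799, 2.02 and 3.43 CPM in MRL/mpj, 11.8, 40.2 and 2.87 CPM in MRL/lpr, and 0.985, 24.5 and 6.10 CPM in MRL/lpr+MSC libraries 1 to 3. Only MRL/lpr 3, below MRL/mpj 3, made the MRL/lpr and MRL/mpj libraries overlap. Otx2 (ENSMUSG00000021848, chr14:48657677-48673819, minus strand) encodes the homeodomain factor needed for the choroid plexus to form. Its level was 2.05, 3.91 and 4.46 CPM in MRL/mpj, 16.1, 33.0 and 9.84 CPM in MRL/lpr, and 0.985, 24.1 and 11.6 CPM in MRL/lpr+MSC libraries. All MRL/lpr libraries were above all MRL/mpj libraries, and MRL/lpr+MSC 1 was the lowest of the 9.

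**Figure D1:**
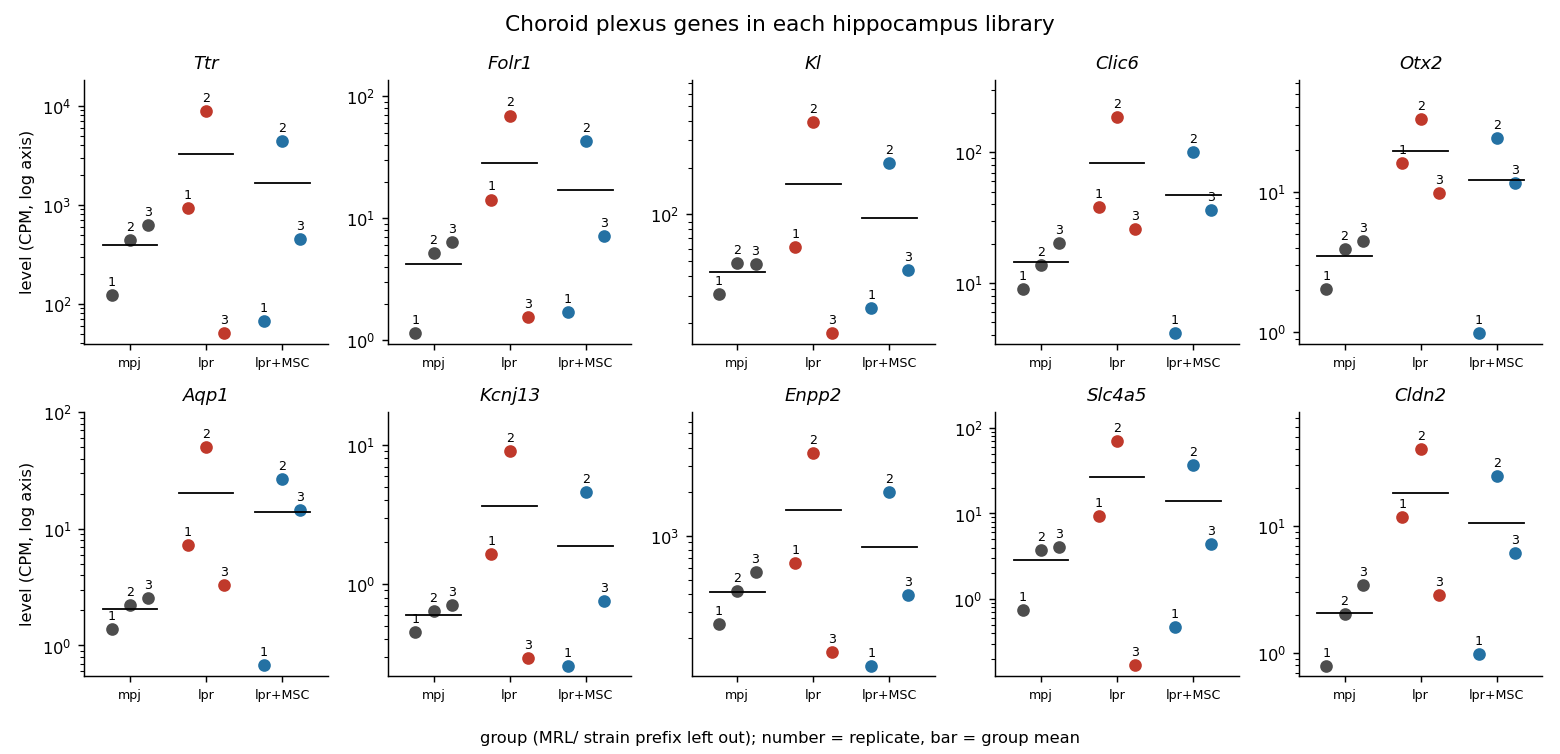
Level of each of the 10 genes in CPM (log axis) in the 9 libraries, with 1 point per library, its replicate number above it, and a bar at the group mean. Replicate 2 of MRL/lpr and of MRL/lpr+MSC is highest in every panel, and for Otx2, Clic6 and Aqp1 alone the MRL/lpr points lie wholly above the MRL/mpj points.

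Per gene length, Ttr led with a mean of 1444 FPKM over the 9 libraries, followed by Enpp2 with 262, Clic6 with 12.2, Kl with 10.4, Folr1 with 7.19, Aqp1 with 4.59, Otx2 with 3.45, Cldn2 with 3.07, Slc4a5 with 2.47 and Kcnj13 with 1.59 FPKM. From Clic6 down, neighbours in this order differed by far less than each gene varied between libraries. Ttr was the highest of the 10 in 8 libraries. The exception was MRL/lpr 3, where Enpp2 stood at 46.4 FPKM and Ttr at 41.7 FPKM.

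Between libraries the 10 genes mostly moved together, except in MRL/lpr 3. MRL/lpr 2 ranked first and MRL/lpr+MSC 2 second for all 10, and MRL/lpr 1 held rank 3 for 9, the exception being Aqp1. MRL/lpr+MSC 1 held rank 8 or 9 for 9 genes, MRL/lpr 3 for 6 and MRL/mpj 1 for 5. The 10 genes together made 0.0399%, 0.0910% and 0.121% of the counts in MRL/mpj libraries 1 to 3, 0.186%, 1.36% and 0.0288% in the MRL/lpr libraries, and 0.0222%, 0.699% and 0.0995% in the MRL/lpr+MSC libraries. Relative to the MRL/mpj mean, the median gene stood 15.7-fold higher in MRL/lpr 2 and 8.79-fold higher in MRL/lpr+MSC 2, but at 0.446-fold in MRL/lpr 3 and 0.321-fold in MRL/lpr+MSC 1. The genes divided in MRL/lpr 3, from 0.0589-fold of the MRL/mpj mean for Slc4a5, close to the limit of detection, to 2.83-fold for Otx2. In tissue RNA, fewer cells of a type and less RNA per cell cannot be told apart.

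The spread lay inside the lpr groups more than between groups. From the lowest to the highest library, the median of the 10 genes was 2.26-fold within MRL/mpj, 22.9-fold within MRL/lpr and 24.7-fold within MRL/lpr+MSC. Over all genes that averaged 1 CPM or more and had counts in every library, the median was 1.16-fold, 1.23-fold and 1.23-fold in the same groups. The pair of high libraries resembled each other closely, with MRL/lpr 2 above MRL/lpr+MSC 2 by 1.37-fold for Otx2 to 2.01-fold for Ttr. MRL/lpr 2 stood above MRL/lpr 3 by 3.36-fold for Otx2 to 417-fold for Slc4a5.

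The exceptions to a common ratio were found mainly in MRL/lpr 3. Each gene was set against the mean log2 CPM of the other 9 in the same library and centred on its own mean over libraries. Kcnj13 and Folr1 kept closest to the rest, with standard deviations of 0.40 and 0.45 over the 9 libraries, and Slc4a5 and Otx2 departed most, with 1.34 and 1.00. In MRL/lpr 3, Otx2 stood at 2.27, Clic6 at 1.71, Aqp1 at 1.05 and Cldn2 at 0.98, whereas Ttr stood at -1.89 and Slc4a5 at -3.13 on this log2 scale. That Slc4a5 value rests on counts close to the limit of detection, and in the other libraries Slc4a5 lay between -0.64 and 1.22.

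Set against Ttr directly, Otx2 had 3.72 counts per 1000 Ttr counts in MRL/lpr 2, 5.45 in MRL/lpr+MSC 2, 7.16 to 16.8 in MRL/mpj libraries and 193.5 in MRL/lpr 3. Clic6 had 20.9 counts per 1000 Ttr counts in MRL/lpr 2 and 507 in MRL/lpr 3. Slc4a5 kept closest to Ttr, at 3.32 to 9.97 counts per 1000 Ttr counts. The lowest of these values, in MRL/lpr 3, rests on Slc4a5 counts close to the limit of detection. Aqp1 also departed in MRL/lpr+MSC 3, at 1.43 on the centred log2 scale.

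**Figure D2:**
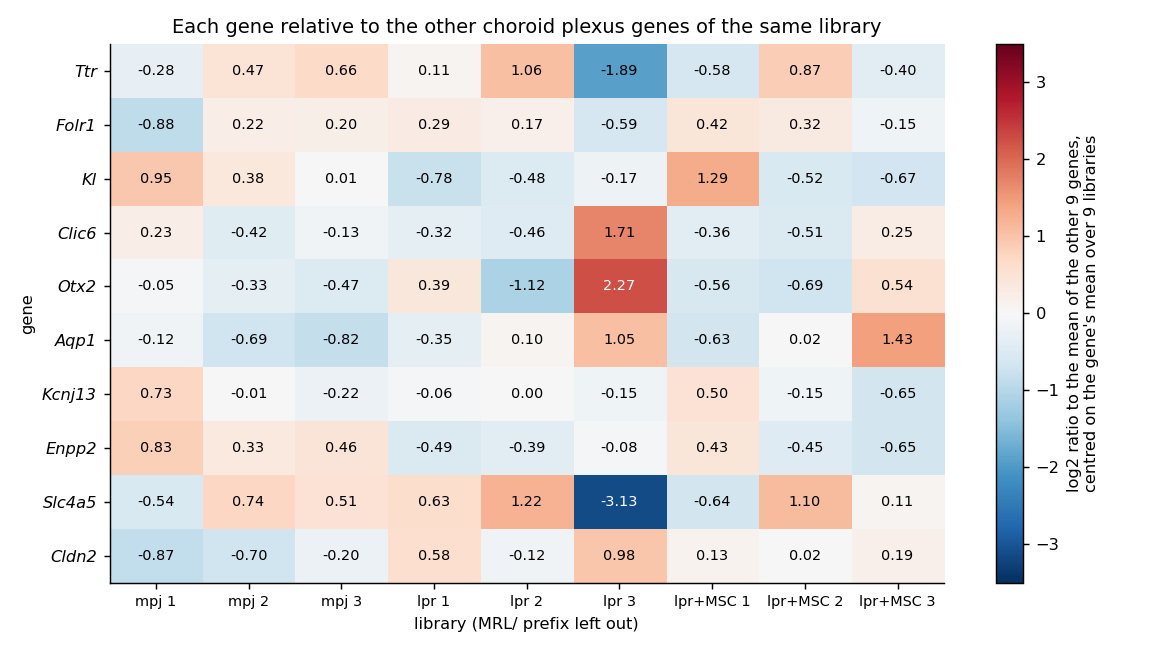
Log2 ratio of each gene's CPM to the mean of the other 9 genes, centred on the gene's mean over 9 libraries, with genes in rows and libraries in columns. MRL/lpr 3 holds both extremes, Otx2 at 2.27 and Slc4a5 at -3.13, the latter from counts close to the limit of detection. Kcnj13 stays between -0.65 and 0.73.

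The first comparison asked what differs in the hippocampus of MRL/lpr mice against MRL/mpj controls. All 10 genes had a higher mean and a higher median in MRL/lpr libraries, yet for 7 of them the groups overlapped. The fitted log2 fold changes were 2.64 (SE 1.47) for Cldn2, 2.38 (SE 0.68) for Otx2, 2.36 (SE 1.46) for Aqp1 and 2.06 (SE 0.94) for Clic6. Those of Folr1, Kcnj13, Ttr, Slc4a5, Enpp2 and Kl lay between 0.85 and 1.78, with standard errors of 1.04 to 2.42. The median over the 10 was 1.61, beside 0.02 over all 16697 genes tested.

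With limma voom, at an adjusted p under 0.05 and a 1.5-fold change, 0 of the 10 genes were called, and 5.79% of all tested genes were. At an unadjusted p under 0.05 the count was 1 of 10, beside 30.4% of all tested genes, and limma-trend called 1 of 10, beside 7.92% of all. The MRL/lpr libraries lay wholly above the MRL/mpj libraries for 3 of the 10, Clic6, Otx2 and Aqp1, as they did for 19.4% of all tested genes. These counts use the values that chose the genes. Without MRL/lpr 2 the log2 fold changes of Ttr, Slc4a5, Kl and Enpp2 became negative, at -0.56, -0.60, -0.30 and -0.25. The others stayed positive there, at 1.95 for Otx2, 1.80 for Cldn2, 1.32 for Aqp1, 1.24 for Clic6, 0.61 for Folr1 and 0.32 for Kcnj13. Without MRL/lpr 3 the log2 fold changes were 3.17 for Ttr and 3.37 for Slc4a5.

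In MRL/lpr+MSC against MRL/mpj mice, the log2 fold changes were 1.79 (SE 1.68) for Aqp1, 1.65 (SE 1.40) for Cldn2, 1.32 (SE 1.40) for Folr1 and 1.08 (SE 1.29) for Otx2. The other 6 lay between 0.25 for Enpp2 and 0.99 for Slc4a5, and the median over the 10 was 0.96, beside 0.01 over all 16196 genes tested. The libraries of the groups overlapped for all 10 genes. limma voom called 0 of the 10, beside 3.43% of all tested genes. At an unadjusted p under 0.05 the count was 0 of 10, beside 22.9% of all, and limma-trend called 0 of 10, beside 3.71% of all. MRL/lpr+MSC libraries lay wholly above MRL/mpj libraries for 0 of the 10 and for 15.2% of all tested genes. Without MRL/lpr+MSC 2, the log2 fold changes of Ttr, Enpp2, Slc4a5, Kcnj13, Kl and Clic6 were negative, from -0.93 for Ttr to -0.05 for Clic6. Both comparisons share the MRL/mpj libraries.

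The comparison of MRL/lpr+MSC with MRL/lpr mice addressed the administered stem cells. The log2 fold change was negative for all 10 genes, from -0.17 (SE 2.46) for Slc4a5 to -1.31 (SE 1.04) for Otx2, and the median was -0.62. The libraries of the groups overlapped for all 10, and Aqp1 had the higher median in MRL/lpr+MSC. limma voom called 0 of the 10, with 0 at an unadjusted p under 0.05 and 0 by limma-trend. It also called 0% of all 16758 genes tested, of which 647, or 3.86%, had an unadjusted p under 0.05, and limma-trend called 0. MRL/lpr+MSC libraries lay wholly above MRL/lpr libraries for 0 of the 10 and for 4.27% of all tested genes. Leaving out the high library of each group together gave -1.80 for Otx2, -1.25 for Clic6 and -1.24 for Cldn2, and values between -0.66 and 0.07 for the other 7.

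**Figure D3:**
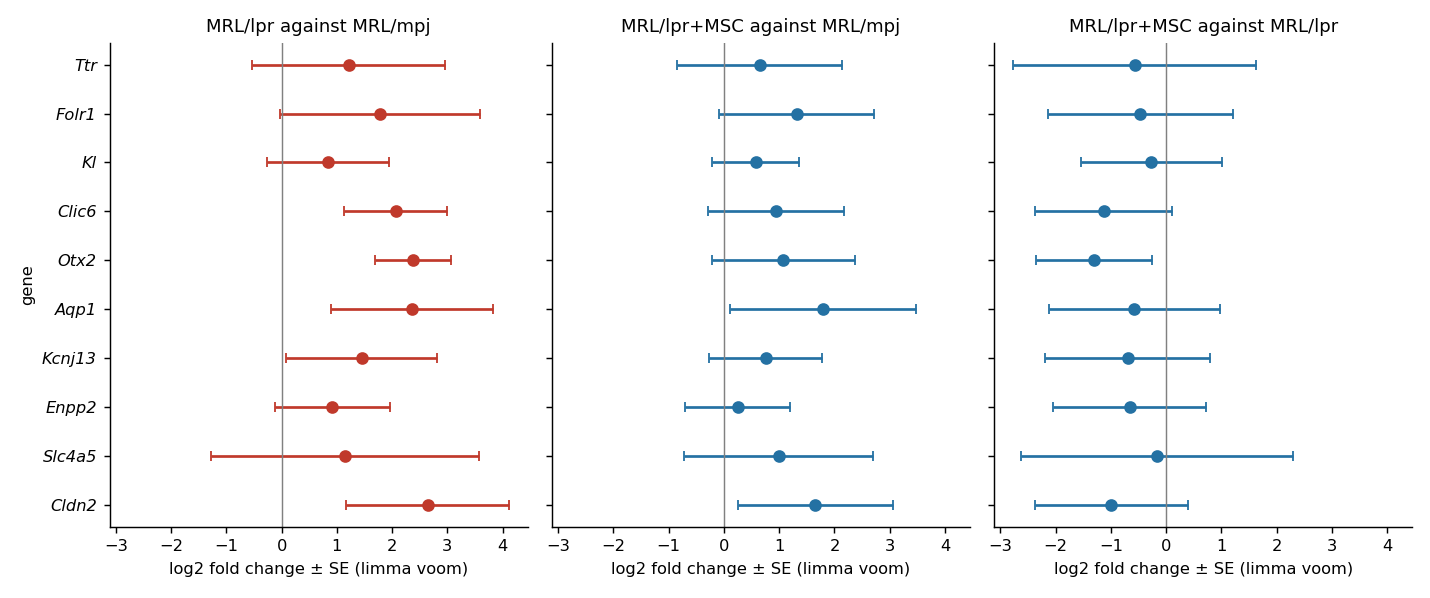
Fitted log2 fold change (point) and standard error (bar) of each of the 10 genes in the 3 comparisons, 3 libraries against 3 in each. The points lie above 0 in both comparisons with MRL/mpj and below 0 in MRL/lpr+MSC against MRL/lpr, and most bars cross 0, Otx2 in MRL/lpr against MRL/mpj being the shortest with 0.68.

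A further 31 genes of the same epithelium, listed with earlier results of these data known, were read in the same fits. MRL/lpr 2 was highest and MRL/lpr+MSC 2 second for all 31, and MRL/lpr 1 held rank 3 for 25. Their median level relative to the MRL/mpj mean was 7.74-fold in MRL/lpr 2, 4.22-fold in MRL/lpr+MSC 2 and 0.575-fold in MRL/lpr+MSC 1. In the comparisons with MRL/mpj, 30 were tested, and Slco1a5, a transporter with few counts, was not.

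None of the further genes passed the test in any comparison. Against MRL/mpj, limma voom called 0 of 30 in MRL/lpr and 0 of 30 in MRL/lpr+MSC, and it called 0 of 31 between the lpr groups, beside 5.79%, 3.43% and 0% of all tested genes. At an unadjusted p under 0.05 the counts were 1, 0 and 0, beside 30.4%, 22.9% and 3.86% of all, and limma-trend called 1, 0 and 0, beside 7.92%, 3.71% and 0% of all. The single gene was Prlr, the prolactin receptor, named after its values were seen. It measured 4.79, 9.71 and 7.29 CPM in MRL/mpj, 28.2, 124 and 24.8 CPM in MRL/lpr and 4.46, 64.9 and 23.4 CPM in MRL/lpr+MSC libraries 1 to 3, with a log2 fold change of 2.63 (SE 0.97, adjusted p = 0.128 by limma voom) in MRL/lpr against MRL/mpj. MRL/lpr 3 lay above all MRL/mpj libraries for Prlr, as it did for Otx2. Cgnl1 and Rdh5 also showed no overlap in this comparison, which makes 3 of 30, beside 19.4% of all tested genes.

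By role, the log2 fold changes in MRL/lpr against MRL/mpj had a median of 0.81 over 10 transport genes, 1.41 over 9 secreted, matrix and receptor genes, 1.52 over 2 transcription factors and 1.09 over 4 junction and keratin genes. Of the transport genes, Slc12a2, the sodium potassium chloride cotransporter, varied least, from 78.1 to 195 CPM, with a log2 fold change of 0.24 (SE 0.25). Slc29a4, a monoamine transporter, had 0.35 (SE 0.42). Igfbp2, an insulin-like growth factor binding protein, had 0.37 (SE 0.49), and 1500015O10Rik, a secreted peptide precursor, had 2.46 (SE 1.57). Of the homeodomain factors, Msx1 had 1.53 (SE 0.93) and Lmx1a 1.52 (SE 1.40). Of the junction genes, Cgnl1 had 1.25 (SE 0.62) and Perp 0.42 (SE 0.66). The remaining 5 genes, put under no such role, had a median of 1.44, with 2.01 (SE 0.85) for Calml4 and 0.66 (SE 0.47) for Cab39l. None of these passed the test.

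**Figure D4:**
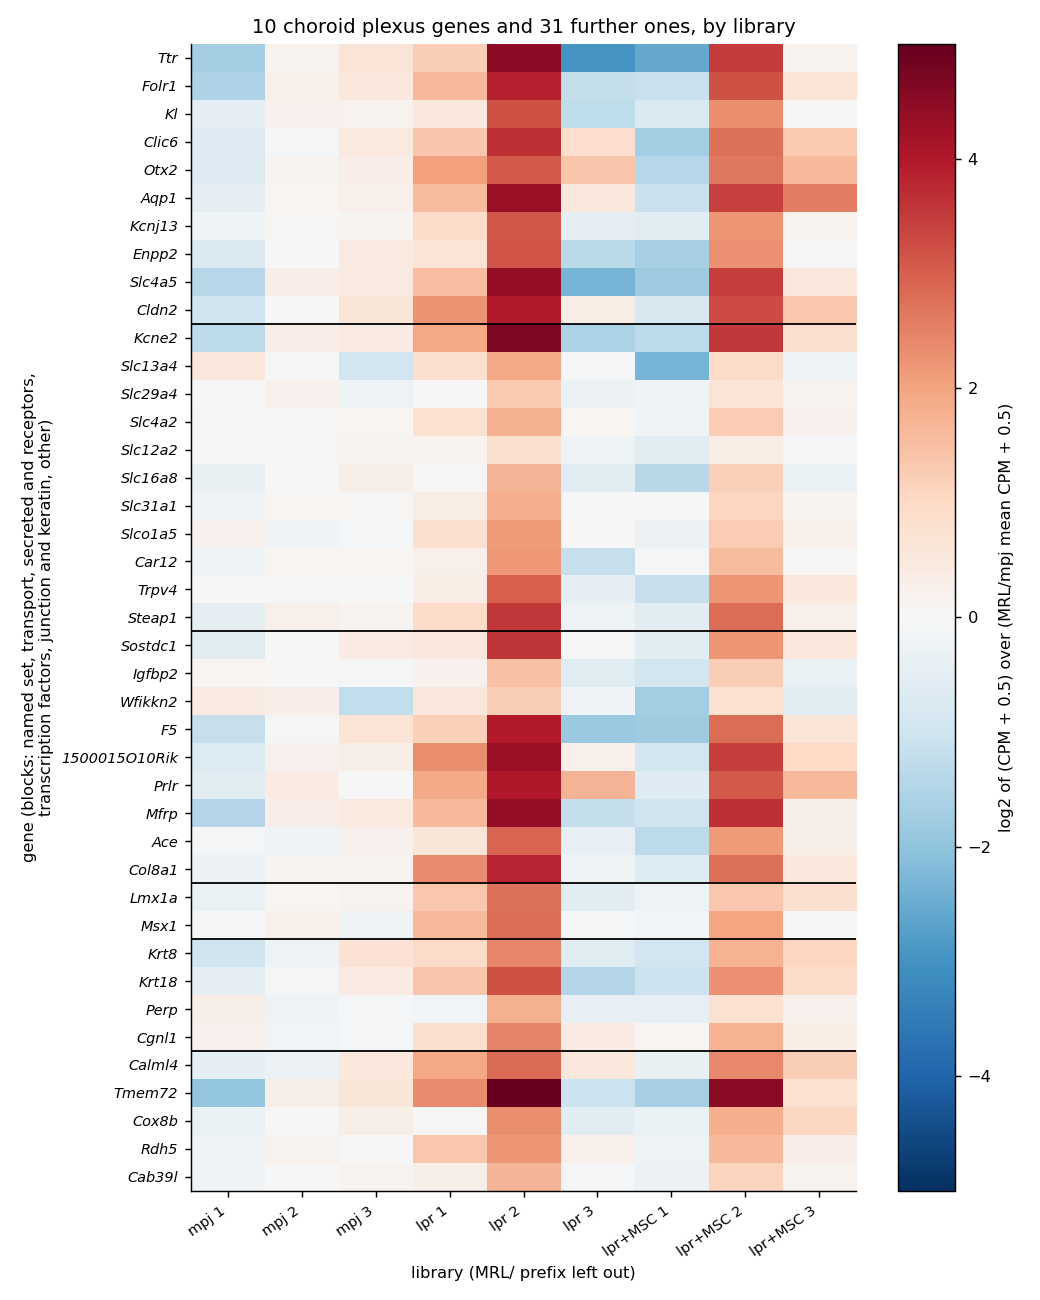
Log2 of CPM plus 0.5 over the MRL/mpj mean plus 0.5, for the 10 genes and the further 31 (rows, in blocks by role) in the 9 libraries (columns). The columns of MRL/lpr 2 and MRL/lpr+MSC 2 are raised in all 41 rows, and MRL/lpr 3 and MRL/lpr+MSC 1 are below the MRL/mpj mean in most.

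Among the 14936 other genes that averaged 1 CPM or more, likeness to the 10 was measured as the correlation of log2 CPM with their mean over the 9 libraries, which is a description. The 10 most alike were Tmem72, a membrane protein of unknown role (r = 0.991), Kcne2, a potassium channel subunit (r = 0.988), F5, coagulation factor V (r = 0.984), Mfrp, 1500015O10Rik, Lamp2, Slc28a3, Krt18, Steap1 and Aldh2 (r = 0.972). Of these, 7 belong to the further choroid plexus list, as do 23 of the first 100 and 30 of all 14936. That list was set with earlier results of these data known, so the overlap is a description too. Tmem72 ranged from 0.499 CPM in MRL/mpj 1 to 153 CPM in MRL/lpr 2. Lamp2, a lysosomal membrane protein, followed the order of libraries with a range of only 1.70-fold. Aldh2, an aldehyde dehydrogenase, was highest in the same 2 libraries, with a range of 1.58-fold. Its level in MRL/lpr 1, 99.7 CPM, lay below MRL/lpr+MSC 3 at 101.4 CPM and MRL/mpj 3 at 101.0 CPM. The 10 genes themselves correlated with the mean of the other 9 at r = 0.867 for Otx2 to r = 0.983 for Folr1. The points share libraries, and 2 of the 9 carry most of the range.

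The 10 ependymal genes, which mark the ciliated cells that line the ventricles, summed to 25.9 to 29.2 CPM in MRL/mpj, 74.7 to 197 CPM in MRL/lpr and 37.8 to 124 CPM in MRL/lpr+MSC libraries, and all 10 were highest in MRL/lpr 1, not in MRL/lpr 2. In MRL/lpr against MRL/mpj, 3 of the 10 were called higher, Rsph1 (log2 fold change 1.57, SE 0.36, adjusted p = 0.0475), Fam183b (1.82, SE 0.43, adjusted p = 0.0480) and Pifo (2.01, SE 0.48, adjusted p = 0.0481) by limma voom, beside 3.41% of all tested genes, and none in the other comparisons. These 3 adjusted p-values lie just under the threshold of 0.05, and the list was chosen with earlier results of these data known. Foxj1, the ciliary transcription factor with the highest level of this list, measured 6.19 to 8.87 CPM in MRL/mpj and 20.5 to 58.6 CPM in MRL/lpr libraries. MRL/lpr 3, low in Ttr, thus had ependymal RNA above every MRL/mpj library.

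Meningeal fibroblast genes, 8 in all, summed to 81.4 to 211 CPM in MRL/mpj, 124 to 309.5 CPM in MRL/lpr and 73.9 to 148 CPM in MRL/lpr+MSC libraries, and 7 of the 8 were highest in MRL/lpr 2. Their sum, like the levels of the 10 choroid plexus genes, was highest in MRL/lpr 2, and it was lowest in MRL/lpr+MSC 1. In MRL/lpr+MSC 2, which was second for all choroid plexus genes, the sum was only 148 CPM. It was higher in MRL/mpj 1 at 211, MRL/lpr 1 at 204 and MRL/mpj 2 at 156 CPM. None of the 8 meningeal genes was called. The 8 oligodendrocyte genes, none of them called, summed to 7679 to 8342 CPM in MRL/mpj, 5023 to 9805 CPM in MRL/lpr and 4260 to 7686 CPM in MRL/lpr+MSC libraries. Of 8 endothelial genes Cldn5 was called higher in both lpr groups against MRL/mpj, while their sum stayed between 322 and 425 CPM in all libraries. Hippocampal neuron genes summed to 1514 to 1757 CPM in MRL/mpj, 959 to 1545 CPM in MRL/lpr and 1100 to 1405 CPM in MRL/lpr+MSC libraries, with Spink8 called lower in MRL/lpr against MRL/mpj. Thalamic neuron genes summed to 129 to 167 CPM in MRL/mpj, 156 to 300.1 CPM in MRL/lpr and 85.4 to 306 CPM in MRL/lpr+MSC libraries, and none of them was called. Striatal neuron genes summed to 159 to 178 CPM in MRL/mpj and 177 to 273 CPM in the lpr groups, with Rgs9 called higher in MRL/lpr. The 5 habenular genes summed to at most 11.3 CPM, reached in MRL/lpr 1, with Pou4f1 at 0 in 2 libraries. Of them Gpr151 was called lower in both lpr groups against MRL/mpj, but the list did not move together. In MRL/lpr the log2 fold changes were 2.71 for Chrnb4, 0.81 for Chrna3 and -0.58 for Tac2. In MRL/lpr+MSC they were 0.62 for Chrna3 and 0.46 for Tac2, and none of these was called. The 5 red blood cell genes summed to 58.4 to 165 CPM in MRL/mpj, 52.7 to 102 CPM in MRL/lpr and 27.7 to 149.7 CPM in MRL/lpr+MSC libraries. Hba-a2 was at 0 in 6 libraries. Only Hbb-bt was called lower in both lpr groups against MRL/mpj, with log2 fold changes of -3.07 and -4.10. Hbb-bs, Hba-a1 and Alas2 lay between -0.25 and 0.02 in MRL/lpr and between -0.61 and -0.49 in MRL/lpr+MSC, and were not called. The part of any of these cell types in the levels of the choroid plexus genes was not tested.

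**Figure D5:**
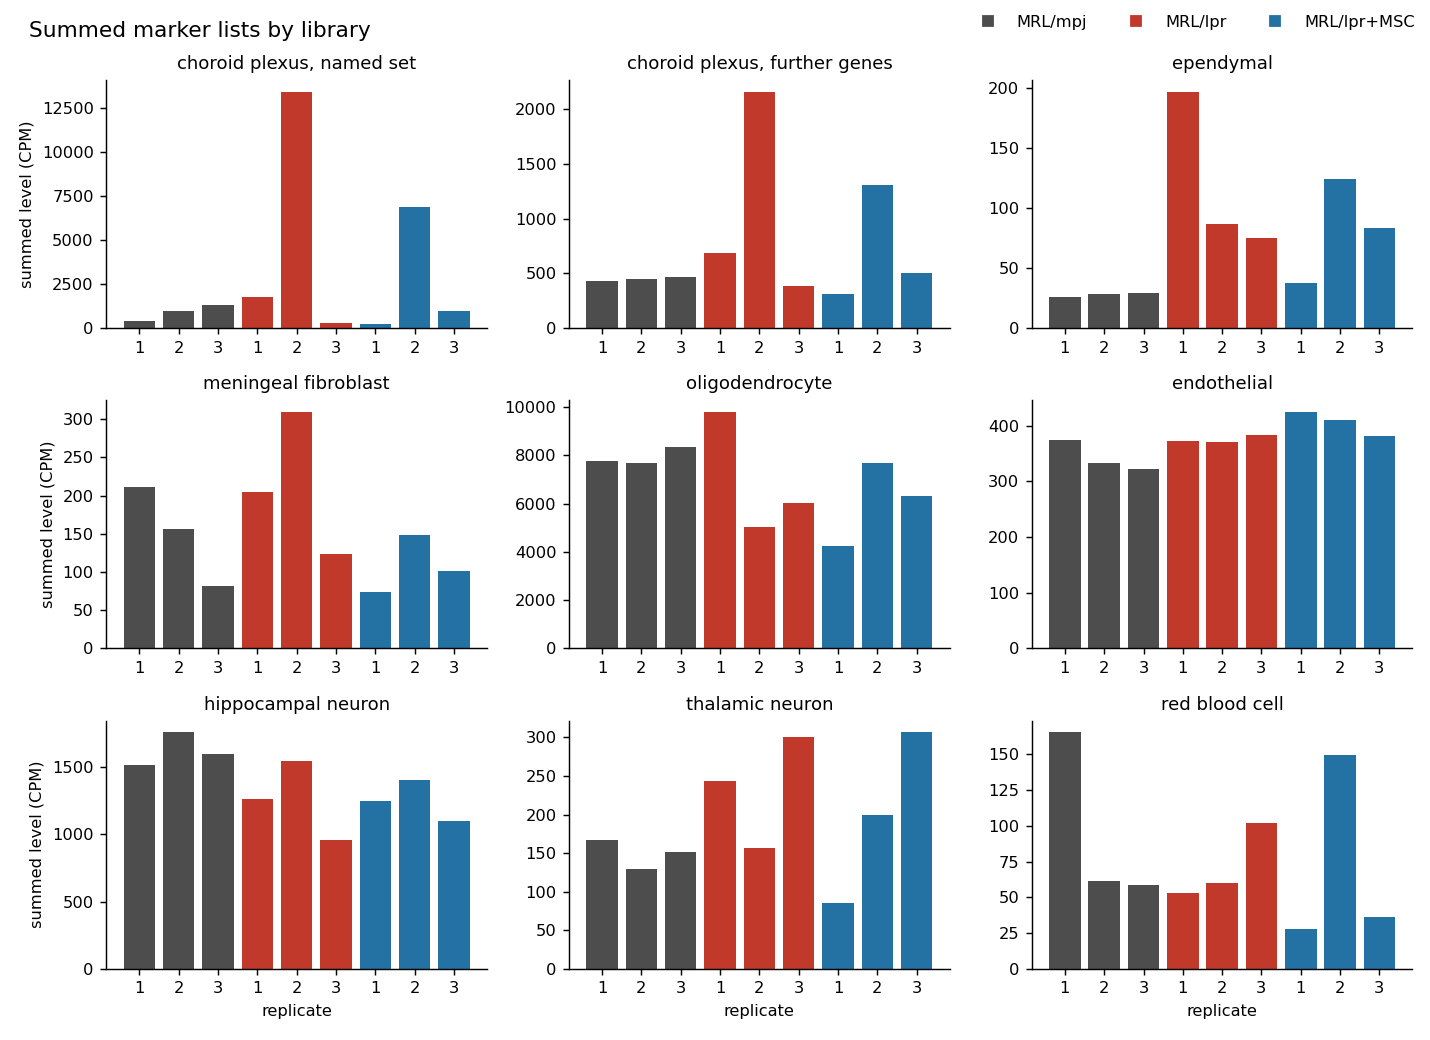
Summed CPM of 9 marker lists in each of the 9 libraries, in bars that start at 0 and are coloured by group. The choroid plexus lists peak in MRL/lpr 2 and MRL/lpr+MSC 2, the ependymal and oligodendrocyte lists peak in MRL/lpr 1, and the thalamic list peaks in MRL/lpr+MSC 3.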

How the data were processed

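Polyadenylated hippocampal RNA was sequenced. According to the methods the authors aligned reads with STAR to mm10 and counted them per gene with HTSeq, whereas the submitters' processing notes name TopHat2 and GRCm38. The deposited matrix holds the raw counts, and the authors deposited FPKM per library, made from the counts and the gene lengths. Each FPKM file followed the count column of its own library. Whether counting used strand is not given in the sources used here, so overlapping and antisense genes cannot be separated. Input RNA is given differently by the labels and the methods.

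The members and all gene lists were chosen with earlier results of these data known. The genes named are the 10 members, those of the further choroid plexus list that were called or had the 2 highest mean FPKM of each role, the 10 genes most alike, and the called and most abundant genes of the 9 other lists, not all of which are printed. Symbols and positions came from GENCODE vM21, which matched 47224 of 47643 genes, and all 106 listed genes were found.

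Each comparison was fitted on its own 6 libraries with limma voom, with robust empirical Bayes moderation, in R 4.3.3 (limma 3.58.1 with statmod 1.5.0), and p-values were adjusted by Benjamini-Hochberg over every gene tested. Counts were scaled with trimmed means (30% of log ratios, 5% of levels). Genes needed the CPM of 10 counts in a median library in at least 3 libraries and 15 counts in all. Levels per library used scaling over all 9 libraries and log2 levels a pseudocount of 0.5 CPM, with 1 exception. The log2 ratios of each of the 10 genes to the mean of the others were made from CPM without a pseudocount. The fit was tested on simulated data with 1 spread setting for all groups. The spread of the 10 choroid plexus genes differed between the groups, so that test does not cover them. The plan named a quasi-likelihood test on the counts as the main test. The matrix's column separator kept its values from being registered as counts, so that test was not run and limma voom, which the plan also listed, took its place. Columns with values of no known sample numbered 0.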

Additional observations from a re-analysis of the deposited data

How the results depend on the processing

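In MRL/lpr against MRL/mpj, 967 genes were called, 569 higher and 398 lower, and 165 to 1695 with 1 library left out. Every single removal moved this count over 1.5-fold, to 1695 without MRL/lpr 2, 1510 without MRL/lpr 3, 421 without MRL/lpr 1, and 253, 260 and 165 without MRL/mpj 1, 2 and 3. Other settings gave 729 to 1323. In MRL/lpr+MSC against MRL/mpj, 556 genes were called, and 193 to 1514 with 1 library left out, with 1514 without MRL/lpr+MSC 1, 359 without MRL/lpr+MSC 2, 276 without MRL/lpr+MSC 3, and 193, 201 and 206 without MRL/mpj 1, 2 and 3. With the replicate block 283 were called there. Between the lpr groups 0 genes were called by limma voom in every setting run. Of the 10 choroid plexus genes, 0 were called in MRL/lpr against MRL/mpj, and 0 to 2 with 1 library left out. Clic6 and Otx2 were called without MRL/lpr 2, beside 1695 of all 17120 genes tested there. Otx2 was called without MRL/lpr 3, beside 1510 of all 17184 genes tested there. The replicate block and limma-trend each called 1, Otx2, beside 1127 and 1323 of all 16697 genes tested. In MRL/lpr+MSC against MRL/mpj the count was 0, and 0 to 2 with 1 library left out, Otx2 and Aqp1 without MRL/lpr+MSC 1. That fit called 1514 of all tested genes. These counts of the 10 genes use the values that chose them. Of the further list, 0 were called in MRL/lpr against MRL/mpj and 0 to 4 with 1 library left out. They were Col8a1, Msx1, Calml4 and Rdh5 without MRL/lpr 3, beside the same 1510 of all genes. Without MRL/lpr 2 they were Prlr and Cgnl1, beside the same 1695. The replicate block and limma-trend each called 1, Prlr, beside the same 1127 and 1323 of all genes. In MRL/lpr+MSC against MRL/mpj it was 0, and 0 to 2 with 1 library left out, Lmx1a and Cox8b without MRL/lpr+MSC 1, beside the same 1514 of all genes. The cause of these changes was not tested. Same-numbered libraries correlated at r = -0.205 to r = 0.403 in their deviations from the group means, and differently numbered ones at r = -0.438 to r = 0.229. These overlapping ranges do not settle whether the replicate numbers pair the samples. MRL/lpr 2 and MRL/lpr+MSC 2 correlated at r = 0.252. The block changed no other count of the 10 genes or of the further list. In MRL/lpr against MRL/mpj it called 1127 genes in all.

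The sign of the 10 genes' log2 fold changes turned in 4 of 120, 8 of 120 and 19 of 130 alternative values in the 3 comparisons. All of these came from leaving out libraries. The median range of the 10 genes between libraries was 47.5-fold, and 46.8-fold and 50.3-fold with other scalings. limma-trend, plain scaling to the total and leaving out both high libraries together were chosen after seeing the data. The edgeR and DESeq2 fits that were planned were not run. Depth limited the least abundant genes, such as Kcnj13 with 9 to 15 counts in MRL/mpj libraries.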
